A study of Mus musculus with 12 samples.

Results

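The TGF-beta superfamily ligand genes encode secreted factors, most of them dimeric. Of the 22367 mouse protein-coding genes, 32 were listed here by name. All 32 were found in GENCODE M1, the annotation of the mm9 genome build. They comprise 9 BMP (bone morphogenetic protein) genes, 11 GDF (growth and differentiation factor) genes with Mstn (myostatin) among them, 5 genes for inhibin and activin subunits, 3 genes of the nodal and lefty group, and 4 genes for TGF-beta and anti-Müllerian hormone. The genes were chosen by family and not by any measured value. Their promoters were examined for H3K27me3, trimethylation of lysine 27 on histone H3, in iMEFs, which are immortalized mouse embryonic fibroblasts.

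Most TGF-beta superfamily ligands bind pairs of type I and type II receptor kinases, which phosphorylate Smad proteins that enter the nucleus and regulate transcription. BMPs and GDFs pattern the embryo and shape bone, joints, limbs and the nervous system, activins and inhibins act in reproduction and in the liver, and Nodal with its antagonists of the lefty type sets up the germ layers and the left-right axis. Many genes of embryonic signals carry H3K27me3, the mark that Polycomb repressive complex PRC2 deposits through its catalytic subunit Ezh2 or the related enzyme Ezh1, in cells where they are silent.

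All cells derived from 1 clone of Ezh2-conditional iMEFs, called C2, transformed with c-Myc, and carried a tamoxifen-inducible Cre recombinase, so that 4-hydroxytamoxifen (OHT) deletes Ezh2. Experiment 1 held 2 libraries of cells labelled Ezh2 WT/WT (wild type) and 2 of cells labelled Ezh2 -/- (knockout), made with an H3K27me3 antibody from Active Motif. Experiment 2 held 2 wild-type and 2 knockout libraries and 1 library each of the Ezh1 and the Ezh2 pre-rescue condition, in which a retroviral Flag-tagged enzyme was expressed before Ezh2 was deleted, made with the antibody clone 7b11. The labels name the cells wild type and null, whereas the study's methods describe a clone with 1 floxed and 1 already deleted Ezh2 allele (flox/Δ), before and after OHT, and every group is therefore derived from a single clone.

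The 10 deposited lists give peak positions and hold neither heights, scores nor read counts. A promoter was the window from 2500 bp before to 2500 bp after the transcription start site (TSS), 5001 bp in all, and it was scored by the number of base pairs (bp) under peaks. A promoter with a peak had at least 1 bp under one, and a marked promoter had a peak in both wild-type libraries of experiment 1. The position of the called mark is known and its amount is not, and in a population of cells, fewer cells with the mark and less mark in each cell cannot be told apart. The peaks covered 141 and 177 Mb in wild-type and 24.3 and 56.7 Mb in knockout cells of experiment 1. In experiment 2 the Ezh1 rescue list covered 256 Mb and the Ezh2 rescue list 80.6 Mb, against 14.9 and 11.3 Mb for wild-type and 0.0589 and 0.481 Mb for knockout cells. By the study's methods, some conditions were scaled by a coefficient before peak calling, namely the Ezh2 -/- cells and the Ezh1 rescue, both downwards. The lists do not show whether this was done for each of them, so the calling and the condition cannot be told apart in these extents. None of the 12 fibroblast marker promoters had a wild-type peak in either experiment, and Vim among them had 1698 and 1275 bp in knockout cells of experiment 1. In contrast, all 5 blood marker promoters, 3 of 6 epithelial and 1 of 4 endothelial marker promoters were marked. In experiment 2, 0 of 5 blood, 0 of 6 epithelial and 0 of 4 endothelial marker promoters had a peak in both wild-type libraries. By peaks in both libraries, the contrast was therefore seen in experiment 1 alone. The lists hold no expression values, so the labelled cell type was checked by promoter peaks alone.

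The ligand genes fell into 4 patterns. Peaks in both wild-type libraries of experiment 1 were found at 14 promoters, those of Bmp3, Bmp7, Bmp8a, Bmp8b, Bmp10, Gdf6, Gdf7, Gdf11, Mstn, Inhbb, Inhbc, Inhbe, Lefty2 and Tgfb1. Another 5 promoters, of Gdf5, Gdf15, Inha, Nodal and Lefty1, were not marked and had a peak in at least 1 rescue. Another 5, of Bmp2, Bmp6, Gdf2, Gdf9 and Gdf10, had peaks in knockout cells of experiment 1 and in no wild-type or rescue library. The remaining 8, of Bmp4, Bmp5, Gdf1, Gdf3, Inhba, Tgfb2, Tgfb3 and Amh, had no peak in any of the 10 lists. For the patterns other than the first, the share of all protein-coding genes was not computed. Those counts therefore show nothing particular to the ligand genes.

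**Figure D1:**
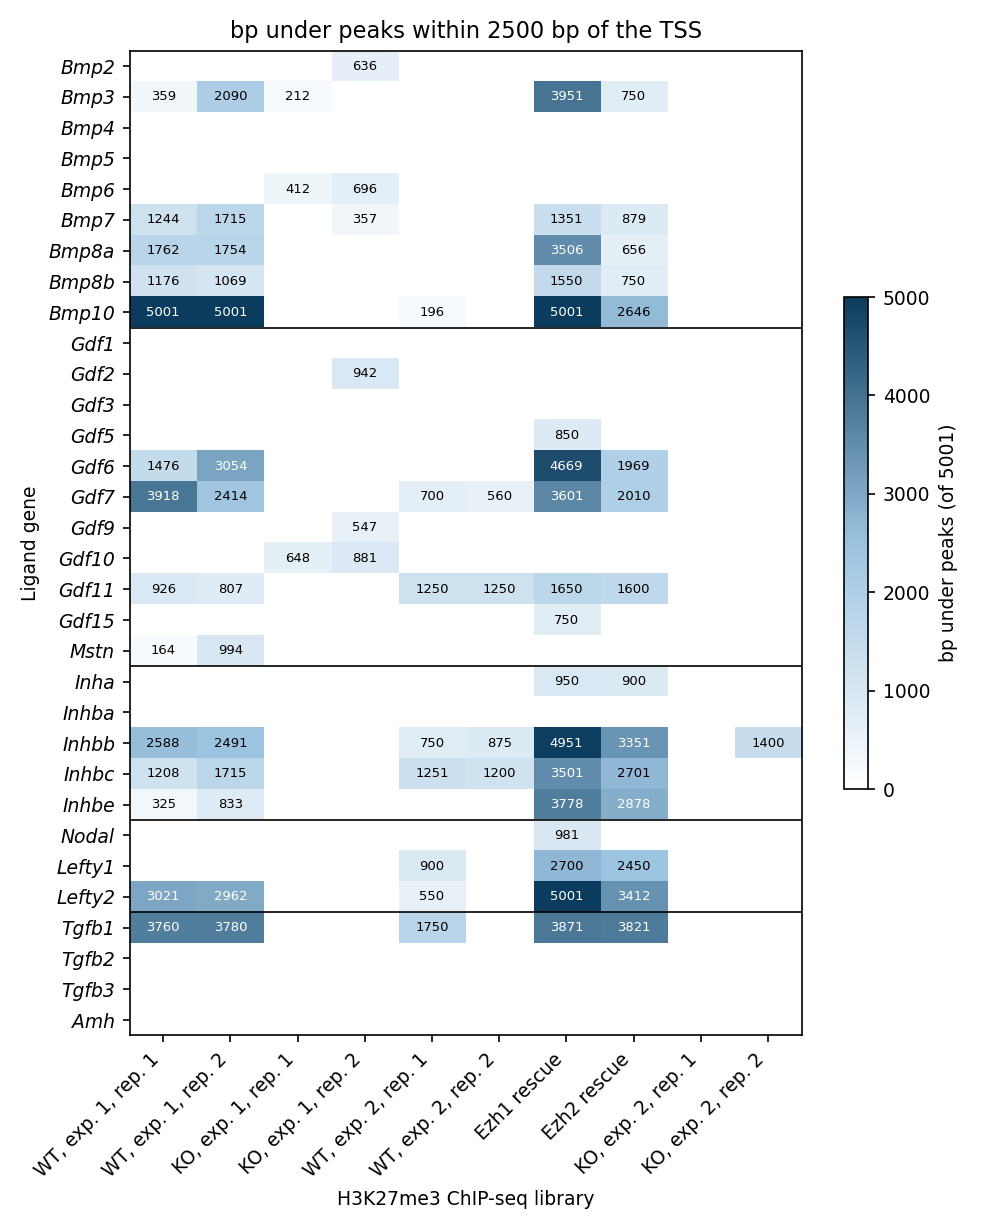
The heat map gives, for each ligand gene (rows, grouped by family and separated by lines) and each library (columns), the bp under H3K27me3 peaks within 2500 bp of the TSS, from 0 (white) to 5001 (dark blue), with each value above 0 printed. The wild-type columns of experiment 1 and the rescue columns are filled at largely the same rows, and the knockout columns hold few values.

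The first comparison asked which ligand promoters carried H3K27me3 when Ezh2 was present and whether they kept it without Ezh2. In wild-type iMEFs of experiment 1, 14 of 32 ligand promoters were marked, or 43.8%, against 20.1% of all protein-coding promoters. Of the 14, 12 had no peak in either knockout library, against 92.4% of all marked promoters, and the exceptions were Bmp3 and Bmp7. All 14 had more bp in either wild-type library than in either knockout library, as did 19.6% of all and 97.4% of marked protein-coding promoters, so this held for ligand genes much as for marked genes in general. With 2 libraries against 2, the exact permutation test (two-sided) gave p = 0.33 for each of the 14. This is the smallest value the design allows, so no single promoter could reach significance. The 14 were also picked by the same wild-type peaks that enter the test.

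Among the BMPs, 5 of 9 promoters were marked. Bmp10, a factor of the developing and adult heart, was the ligand gene with the most bp under peaks. Its whole window of 5001 bp lay under a peak in both wild-type libraries, and it had 0 bp in both knockout libraries. Such full cover in both wild-type libraries was found at 228 protein-coding promoters, or 1.02%, and Bmp10 was the only ligand gene among them. The peak around it spanned chr6:87375093-87384740 in replicate 1, or 9648 bp, and 18776 bp in replicate 2, and both included the entire gene of 5511 bp.

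The other BMP promoters held narrower peaks. Bmp8a and Bmp8b, neighbouring genes on chromosome 4 with known roles in the male germ line, lie 238087 bp apart. Bmp8a had 1762 and 1754 bp in wild-type and 0 bp in both knockout libraries, a wild-type mean of 1758 ± 5.66 bp (SD, n = 2). Bmp8b had 1176 and 1069 bp in wild-type and 0 bp in both knockout libraries. The totals were close between replicates at both genes, whereas the positions differed, with 613 and 248 bp before the TSS of Bmp8a and 1149 and 1506 bp after it.

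Bmp3 and Bmp7 were the marked promoters that held a knockout peak. Bmp3 (chr5:99283458-99309979, plus strand), an atypical BMP that restrains bone formation, had 359 and 2090 bp in wild-type and 212 and 0 bp in knockout libraries. The wild-type values spread by as much as their mean, 1224 ± 1224 bp (SD, n = 2). The knockout peak lay 1400 to 1611 bp after the TSS and overlapped the narrow wild-type peaks there by 151 bp in replicate 1 and 212 bp in replicate 2. Bmp3 is on chromosome 5, where 13.1% of protein-coding promoters had a peak in knockout replicate 1, against 6.61% on the other chromosomes.

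Bmp7 (chr2:172693513-172765822, minus strand), a factor of kidney and eye development, had 1244 and 1715 bp in wild-type and 0 and 357 bp in knockout libraries. Its knockout bp came from peaks of 197 bp and 160 bp in replicate 2, both of which overlapped wild-type peaks, and the groups did not overlap. Over the whole gene body the order differed. This stretch of 72310 bp includes the part of the window after the TSS. Peaks covered 7058 and 11157 bp of it in wild-type cells and 7310 and 38224 bp in knockout cells, and here the groups overlapped.

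Among the GDFs, 4 of 11 promoters were marked and none of these held a knockout peak. Gdf7, a signal of the dorsal neural tube, had 3918 and 2414 bp in wild-type libraries. Gdf6, which acts in joint and eye formation, had 1476 and 3054 bp. In Gdf6, the peak after the TSS was called in both libraries and the peak before it in replicate 2 alone. Gdf11, a regulator of patterning along the body axis, had 926 and 807 bp, all of them before the TSS. Mstn, which restrains muscle growth, had 164 and 994 bp, the near ends of peaks that ran 4886 and 5070 bp into the gene. All 4 had 0 bp in both knockout libraries.

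Among the inhibin and activin subunits, 3 of 5 promoters were marked. Inhbb (chr1:121312042-121318825, minus strand), the gene of the beta B subunit, had 2588 and 2491 bp in wild-type libraries, from peaks on either side of an uncovered TSS. Inhbc and Inhbe, neighbours on chromosome 10 with TSSs 18772 bp apart and both known for their expression in liver, had 1208 and 1715 bp and 325 and 833 bp in turn. All 3 had 0 bp in both knockout libraries of experiment 1. Inha, the alpha subunit that makes a dimer an inhibin, and Inhba, the beta A subunit, had no wild-type peak.

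Of the nodal and lefty group, Lefty2 was marked, and of the TGF-beta and AMH group, Tgfb1. Lefty2 (chr1:182823239-182829234, plus strand), an antagonist of Nodal signalling, had 3021 and 2962 bp in wild-type and 0 bp in both knockout libraries, a wild-type mean of 2992 ± 41.7 bp (SD, n = 2). Lefty1, its neighbour 41914 bp away, had none in experiment 1. Tgfb1 (chr7:26472021-26490096, plus strand), which encodes the isoform with a broad role in immune regulation and tissue repair, had 3760 and 3780 bp in wild-type and 0 bp in both knockout libraries, a wild-type mean of 3770 ± 14.1 bp (SD, n = 2). Tgfb2 and Tgfb3, the other isoforms of TGF-beta, had no peak in any library.

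**Figure D2:**
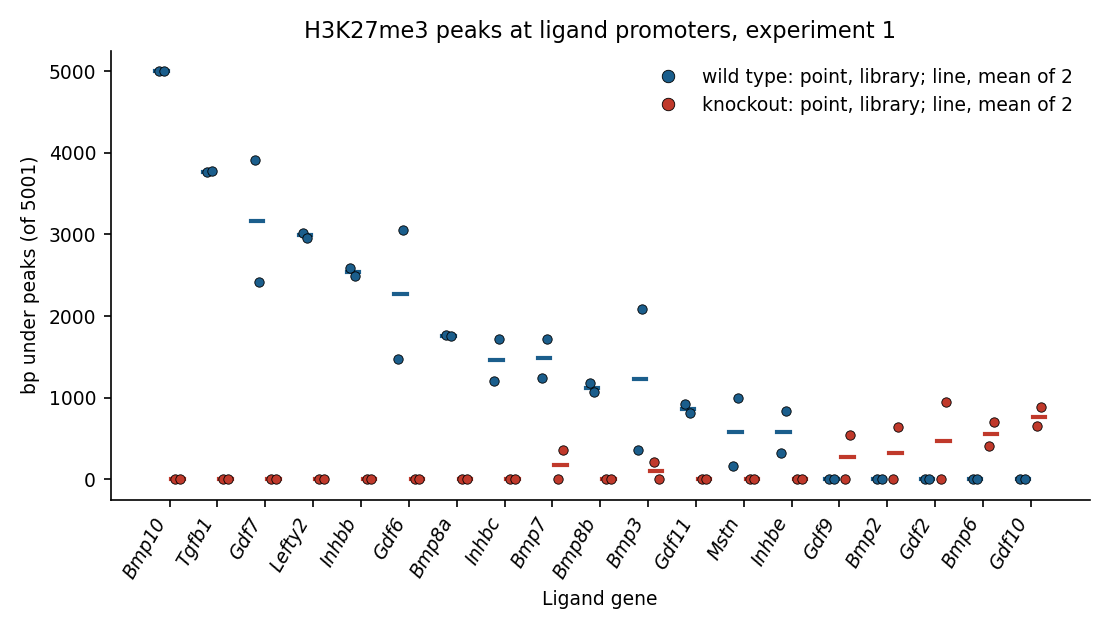
The plot gives the bp under peaks at the promoter for each wild-type (blue) and knockout (red) library of experiment 1 as points, with the mean of 2 libraries as a line, for the 19 ligand genes with a peak in any of them, ordered by the difference of the means. At the 14 genes on the left both wild-type points lie above both knockout points, and at Bmp6 and Gdf10 on the right both knockout points lie above 0 while both wild-type points are at 0.

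Some ligand promoters had knockout peaks in experiment 1, with or without wild-type peaks. In knockout replicate 1, 3 ligand promoters had a peak, those of Bmp3, Bmp6 and Gdf10, against 6.99% of all protein-coding promoters. In knockout replicate 2, 6 had one, those of Bmp2, Bmp6, Bmp7, Gdf2, Gdf9 and Gdf10, against 8.06%. Leaving out the marked genes Bmp3 and Bmp7, these were 2 and 5 unmarked promoters, and the share among all unmarked promoters was not computed. At 2 promoters either knockout library had more bp than either wild-type library, 6.25% of the ligand genes and 3.76% of all protein-coding promoters. Those promoters belong to Bmp6, an inducer of the iron hormone hepcidin, and Gdf10, a close relative of Bmp3.

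Bmp6 had 0 bp in both wild-type libraries and 412 and 696 bp in knockout libraries, in peaks that ended 85 and 108 bp before the TSS. Gdf10 had 0 bp in both wild-type libraries and 648 and 881 bp in knockout libraries, after the TSS. The exact permutation test (two-sided) gave p = 0.33 for each, and both genes were picked by these same values. The nearest wild-type peaks lay 133356 and 149031 bp from the Bmp6 TSS and 86010 and 84758 bp from that of Gdf10. Both genes had 0 bp at the promoter in every library of experiment 2. The lists of experiment 2 hold no peak narrower than 550 bp, whereas those of experiment 1 go down to 150 bp. Of the knockout peaks at these promoters, that of 412 bp at Bmp6 was narrower than 550 bp. The others, of 696 bp at Bmp6 and of 648 and 1621 bp at Gdf10, were wider. The knockout lists of experiment 2 held 29 and 382 peaks in all. With a window of 1000 bp the difference at Gdf10 was 0, and with peaks of at least 1000 bp that at Bmp6 was 0.

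The other knockout peaks were called in replicate 2 alone. They covered 636 bp at Bmp2, a factor of bone and heart formation, 942 bp at Gdf2, a circulating ligand of endothelial cells, and 547 bp at Gdf9, an oocyte factor. Gdf2 lies next to Gdf10 on chromosome 14, with TSSs 17452 bp apart. The Gdf9 window also holds the TSS of Uqcrq, a gene of the respiratory chain on the opposite strand 192 bp away, so that peak cannot be assigned to either gene. At these 3 genes the knockout groups overlapped the wild-type groups at 0. Among promoters with a peak in knockout replicate 1, 64.0% had one in replicate 2, and 55.5% the other way round, against 89.6% and 89.0% in wild-type cells.

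The peaks at marked ligand promoters were mostly beside the TSS. The TSS itself was under a peak in both wild-type libraries at Bmp10, Lefty2 and Tgfb1, in 1 of them at Inhbc, and in neither at 10 of the 14, or 71.4%. Of all marked protein-coding promoters, 62.6% had the TSS uncovered in both libraries and 22.4% had it covered in both. More of the covered bp lay before the TSS at 8 ligand promoters and after it at 5, and Bmp10 was covered equally on both sides. The median of the mean wild-type bp was 1619 for the 14 marked ligand promoters and 2390 for all marked promoters. Of the 18 ligand genes that were not marked, 6 had a wild-type peak of experiment 1 within 10 kb of the TSS. The distance to the nearest ranged from 4253 bp at Gdf3 to 266987 bp at Bmp4. The side of the TSS and these distances were not computed over all protein-coding genes. Neither is therefore shown to be particular to the ligand genes.

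**Figure D3:**
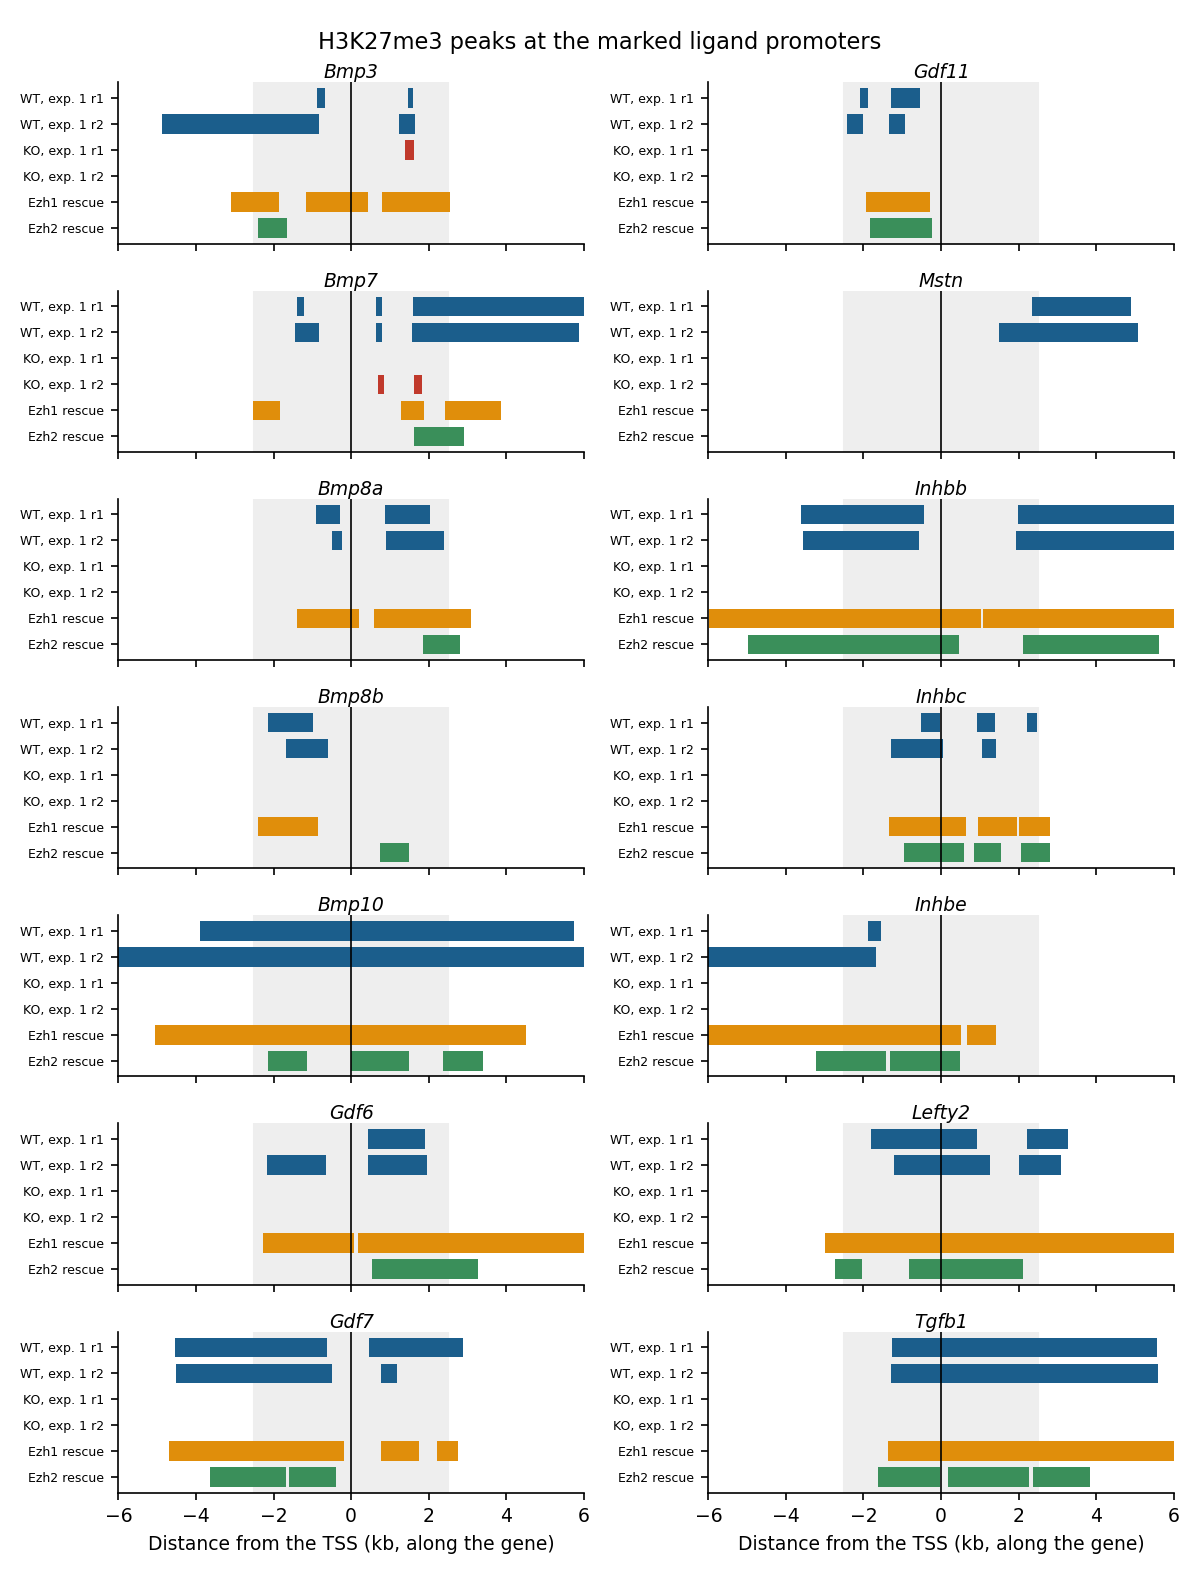
Bars are H3K27me3 peaks about the TSS (vertical line) of the 14 marked ligand genes, drawn to scale in kb along the gene, in wild-type (blue) and knockout (red) libraries of experiment 1 and in the Ezh1 (orange) and Ezh2 (green) rescues, with the scored window of 2500 bp on either side in grey. Knockout bars appear at Bmp3 and Bmp7 alone, the TSS lies under both wild-type bars at Bmp10, Lefty2 and Tgfb1, and bars that reach an edge continue beyond it.

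Base composition around the TSS differed between ligand genes. A promoter was called CpG-rich where the 1001 bp around the TSS had at least 50% GC and an observed-to-expected CpG ratio of at least 0.6. By this definition 13 of the 32 ligand promoters were CpG-rich, and 8 of the 13 were marked, or 61.5%, against 17.6% of CpG-rich protein-coding promoters. Of the 19 others, 6 were marked, or 31.6%, against 22.2%. The median CpG ratio was 0.653 over the marked and 0.440 over the unmarked ligand genes, whereas over all protein-coding genes it was 0.492 at marked and 0.566 at unmarked promoters. The ratio ranged from 0.144 at Amh to 1.08 at Bmp2, neither of which was marked. These shares describe the lists and carry no test.

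The sequences of 4 ligand promoters are shown, chosen by their peaks and, at Tgfb3, by the CpG ratio as well. Each holds the 250 bases directly before the TSS, from the NCBIM37 (mm9) genome, outside annotated exons. They are written 5′ to 3′ on the strand of the gene. Capitals mark the dinucleotide CG, which reads the same on both strands. At least 1 CG was found in this stretch of 92.5% of protein-coding genes, with a median of 8, and in all 32 ligand genes, with a median of 6. Bmp10, with the widest cover of the mark and no knockout peak, has 3 CG and 52.8% GC at chr6:87378746-87378995, plus strand. All 250 bases were under a peak in both wild-type libraries of experiment 1 and in the Ezh1 rescue.
Bmp10: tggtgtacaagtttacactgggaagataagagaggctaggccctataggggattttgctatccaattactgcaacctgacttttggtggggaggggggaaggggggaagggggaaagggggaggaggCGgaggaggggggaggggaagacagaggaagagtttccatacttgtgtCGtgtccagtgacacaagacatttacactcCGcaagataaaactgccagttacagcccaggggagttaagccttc
Bmp7, the marked gene with the most knockout bp in experiment 1, has 27 CG and 70.8% GC at chr2:172765823-172766072, minus strand. None of these bases was under a peak in any library, and its peaks lay farther out on both sides.
Bmp7: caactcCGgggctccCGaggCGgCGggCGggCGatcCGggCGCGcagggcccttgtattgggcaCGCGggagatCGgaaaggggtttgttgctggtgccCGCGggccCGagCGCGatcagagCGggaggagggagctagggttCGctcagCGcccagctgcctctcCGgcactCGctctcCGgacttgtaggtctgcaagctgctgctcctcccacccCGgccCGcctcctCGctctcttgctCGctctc
Inhbb, chosen after its values were seen because it held knockout peaks in experiment 2, has 21 CG and 68% GC at chr1:121318826-121319075, minus strand. All 250 bases were under a peak in both rescues, 25 bases in wild-type replicate 1 and 75 bases in knockout replicate 2 of experiment 2.
Inhbb: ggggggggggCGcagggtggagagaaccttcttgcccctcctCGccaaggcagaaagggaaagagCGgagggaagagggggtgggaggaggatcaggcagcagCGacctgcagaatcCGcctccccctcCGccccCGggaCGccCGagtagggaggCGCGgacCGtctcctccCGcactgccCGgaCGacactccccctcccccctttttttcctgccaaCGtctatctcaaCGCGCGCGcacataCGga
Tgfb3, the unmarked gene with the highest CpG ratio among those without a knockout peak, has 9 CG and 49.2% GC at chr12:87419992-87420241, minus strand, and no base of it was under a peak.
Tgfb3: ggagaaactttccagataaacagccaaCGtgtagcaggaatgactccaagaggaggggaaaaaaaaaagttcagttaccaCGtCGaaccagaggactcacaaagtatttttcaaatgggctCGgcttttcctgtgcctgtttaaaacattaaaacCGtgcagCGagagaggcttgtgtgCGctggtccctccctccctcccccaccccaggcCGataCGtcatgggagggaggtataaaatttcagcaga

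The second comparison asked the same question with another antibody and sequencer. In experiment 2, 4 of 32 ligand promoters had a peak in both wild-type libraries, those of Gdf7, Gdf11, Inhbb and Inhbc, or 12.5% against 3.11% of all protein-coding promoters, and all 4 were also marked in experiment 1. Wild-type replicate 1 had a peak at 8 ligand promoters, against 7.05% of all, and replicate 2 at 4, against 6.07%. The 4 promoters called in replicate 1 alone were those of Bmp10, Lefty1, Lefty2 and Tgfb1. Of protein-coding promoters with a peak in replicate 1, 44.1% had one in replicate 2, and 51.2% the other way round.

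Gdf11 had 1250 bp in each of the 2 wild-type libraries of experiment 2, more than its 926 and 807 bp in experiment 1. Inhbc had 1251 and 1200 bp, close to the 1208 and 1715 bp of experiment 1. Gdf7 had 700 and 560 bp, and Inhbb 750 and 875 bp, both below their values in experiment 1. At Bmp10, whose window was fully covered in experiment 1, the values were 196 and 0 bp. Tgfb1 had 1750 and 0 bp, Lefty1 900 and 0 bp, and Lefty2 550 and 0 bp. The experiments differ in antibody, sequencer, covered extent and narrowest called peak, 150 bp in experiment 1 and 550 bp in experiment 2. These differences cannot be told apart.

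Of the 4 promoters marked in both wild-type libraries of experiment 2, 3 had no knockout peak, against 96.4% of all such promoters. These 3, Gdf7, Gdf11 and Inhbc, had more bp in either wild-type library than in either knockout library. The same held for 3.03% of all protein-coding promoters and 97.4% of those with a peak in both wild-type libraries. For each of the 3, the exact permutation test (two-sided) gave p = 0.33, the smallest value that 2 libraries against 2 allow. They were also picked by the same wild-type peaks that enter the test. Inhbb was the exception among the 4. It had 0 bp in knockout replicate 1 and 1400 bp in replicate 2, more than in either wild-type library, and the exact permutation test (two-sided) gave p = 1.00.

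Inhbb was the only ligand gene with a knockout peak in experiment 2, where replicate 1 held 29 peaks in all and replicate 2 held 382, with 0.376% of protein-coding promoters called in replicate 2. Its peaks in that library ran from 925 to 176 bp before the TSS and from 1375 to 2024 bp after it. The upstream peak shared 700 bp with a peak of wild-type replicate 1 and all of its 750 bp with peaks of both rescues. Without knockout replicate 1, the difference between wild type and knockout at Inhbb was -587.5 bp, against 112.5 bp with it, so its direction rests on that library.

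The third comparison set the rescues side by side and asked which ligand promoters were marked when Ezh1 or Ezh2 was expressed before the deletion. Each rescue had 1 library, so the differences have no replicate check and no test. With Ezh1, 18 ligand promoters had a peak, against 28.2% of all protein-coding promoters, and with Ezh2, 15 had one, against 18.8%. Of the 14 promoters marked in experiment 1, 13 had a peak in each rescue. Over all marked protein-coding promoters the shares were 90.8% with Ezh1 and 71.1% with Ezh2. Mstn was the marked ligand gene with no peak in either rescue, and it had none in any library of experiment 2.

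All 15 ligand promoters with a peak in both rescues had more bp in the Ezh1 rescue, and the medians were 3601 bp for Ezh1 and 2010 bp for Ezh2. These bp give the extent of called peaks and not the amount of the mark. In all, 18 ligand promoters had more bp with Ezh1, against 26.9% of all promoters, and 0 had more bp with Ezh2, against 2.44%. The median ratio of Ezh1 to Ezh2 rescue was 1.48 over the 15 ligand promoters and 1.89 over the 3910 protein-coding promoters with a peak in both, of which 92.2% had more bp in the Ezh1 rescue. The Ezh1 list covered 256 Mb and the Ezh2 list 80.6 Mb of the genome, and the part of that in the promoter values was not tested.

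The ratio varied among ligand genes. It was highest at Bmp8a, with 3506 bp in the Ezh1 and 656 bp in the Ezh2 rescue, a ratio of 5.35. At Bmp3, 3951 and 750 bp gave a ratio of 5.27. At the lower end, Tgfb1 had 3871 and 3821 bp, a ratio of 1.01, and Gdf11 1650 and 1600 bp, a ratio of 1.03. Within the scored window, Bmp8a and Bmp3 were covered widely with Ezh1 and narrowly with Ezh2. Tgfb1 and Gdf11 were covered there to a like extent with either enzyme.

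Between these ends, Gdf6 had 4669 bp in the Ezh1 and 1969 bp in the Ezh2 rescue, and Bmp10 had 5001 and 2646 bp. The Ezh2 rescue peaks at Bmp10 were 3 separate peaks of 1000 to 1500 bp where the Ezh1 rescue had a single peak of 9550 bp. Lefty2 had 5001 and 3412 bp, and Inhbb 4951 and 3351 bp, the highest Ezh2 rescue values after Tgfb1. Inhbe had 3778 and 2878 bp, against 0 bp in both wild-type libraries of experiment 2 and 325 and 833 bp in those of experiment 1. Inhbc had 3501 and 2701 bp, Gdf7 3601 and 2010 bp, Bmp8b 1550 and 750 bp, and Bmp7 1351 and 879 bp. At Bmp8b the peaks did not coincide, with the Ezh1 rescue peak before and the Ezh2 rescue peak after the TSS.

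Several ligand promoters without a peak in experiment 1 had rescue peaks. Lefty1, a midline factor of the left-right axis, had 2700 bp in the Ezh1 and 2450 bp in the Ezh2 rescue, with the TSS under a peak in both. Inha had 950 and 900 bp, in a window that also holds the TSS of Obsl1 on the opposite strand 625 bp away. At 3 ligand promoters, against 10.8% of all, the Ezh1 rescue alone had a peak. These were Nodal with 981 bp, Gdf5, a factor of joint formation, with 850 bp, and Gdf15, a cytokine released under cell stress, with 750 bp. Their nearest wild-type peaks of experiment 1 lay 6542 bp, 7796 bp and 6696 bp from the TSS.

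The TSS was covered more often in the Ezh1 rescue. It lay under a peak at 11 of the 18 ligand promoters with a peak there, against 52.4% of such protein-coding promoters, and at 6 of 15 in the Ezh2 rescue, against 30.2%. Of the marked genes, Bmp3, Bmp8a, Gdf6, Inhbb and Inhbe had the TSS uncovered in both wild-type libraries of experiment 1 and covered with Ezh1. With Ezh2 the same held for Inhbb and Inhbe.

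**Figure D4:**
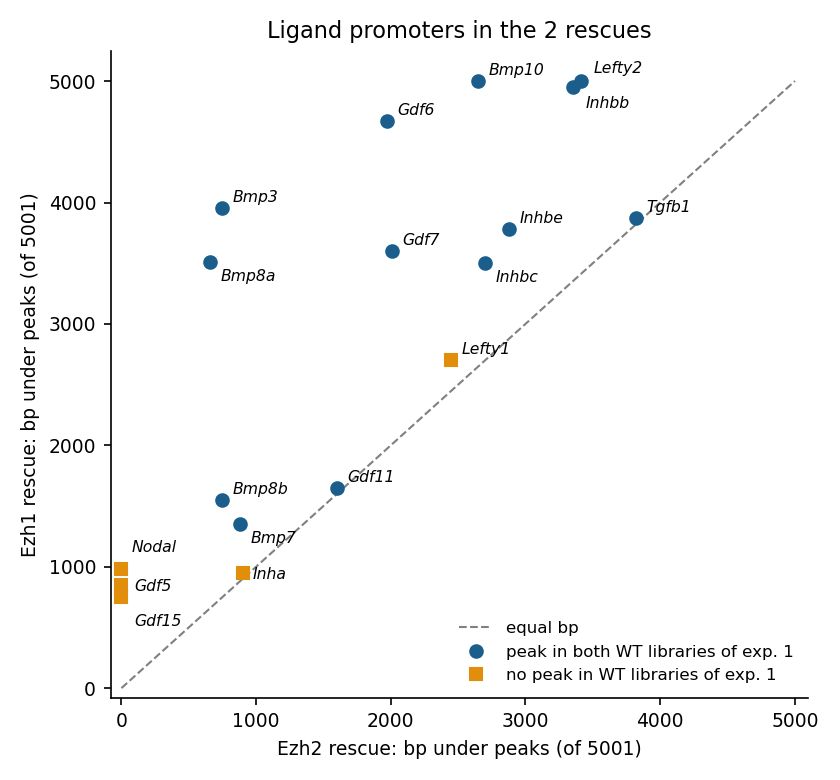
Each point is a ligand gene with a peak in at least 1 rescue, placed by the bp under promoter peaks in the Ezh2 rescue (x axis) and the Ezh1 rescue (y axis), with circles for the 13 genes marked in experiment 1, squares for the 5 that were not, and a dashed line of equal bp. All 18 points lie above the line, Tgfb1 and Gdf11 nearest to it among the circles, Bmp3 and Bmp8a far from it, and Nodal, Gdf5 and Gdf15 at 0 on the x axis.

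The other genes of the pathway were taken from lists, and their shares stand beside the 20.1% of all protein-coding promoters without a test of any difference. Of 15 receptor and co-receptor genes, 4 were marked in experiment 1, or 26.7%, and all 4 were without a knockout peak. Acvrl1, an endothelial type I receptor, had 5001 and 4208 bp in wild-type libraries, Bmpr1b, a type I receptor for BMPs, 2243 and 3689 bp, Tgfbr1, the type I receptor for TGF-beta, 1958 and 2302 bp, and Acvr2b, a type II receptor for activins, 2544 and 1452 bp. Among those with no peak in any library were the type I receptors Acvr1, Acvr1c and Bmpr1a and the type II receptors Tgfbr2 and Bmpr2.

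Of 21 secreted antagonists and modulators, 8 were marked, or 38.1%, and all 8 were without a knockout peak. Chrdl2 had 5001 bp in both wild-type libraries, as Bmp10 did. Chrd, which encodes the BMP antagonist chordin, had 3811 and 3808 bp, and Sost, whose product sclerostin restrains bone formation, 4153 and 2962 bp. Noggin (Nog) had 0 and 912 bp and was not marked. None of the 8 Smad genes, the intracellular transducers, was marked, and none had a rescue peak. Of 5 further ligands of the superfamily that were not listed, Bmp15 among them with 0 bp in every library, Gdnf and Nrtn, neurotrophic factors, were marked, with 2576 and 2379 bp and 3704 and 2163 bp in wild-type libraries, and both were also called in both wild-type libraries of experiment 2.

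Of 11 transcriptional targets of the pathway, 2 were marked, or 18.2%. Msx2, a homeobox gene, had 3877 and 4189 bp, and Id4 had 1673 and 2401 bp in wild-type libraries, with 0 bp in both knockout libraries. Id1, a widely used readout of BMP signalling, had the reverse pattern, with 0 bp in both wild-type libraries and 882 and 881 bp in knockout libraries. Snai1, a regulator of the epithelial-to-mesenchymal transition, had 967 and 0 bp in wild-type and 1469 and 793 bp in knockout libraries, and these groups overlapped.

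A second group of secreted embryonic signals, 41 WNT and FGF ligand genes, was listed for comparison. Of these, 24 were marked, or 58.5%, and 23 of the 24 had no knockout peak in experiment 1, Wnt3 being the exception. In knockout cells of experiment 2, 4 of the 24 had a peak, those of Wnt7b with 2700 and 3900 bp, Wnt3a with 1000 and 2047 bp, Wnt1 with 0 and 550 bp, and Fgf3 with 0 and 538 bp. With Ezh1, 30 of them had a peak, and with Ezh2, 27 had one. The shares of both ligand groups lay above the 20.1% of all protein-coding promoters, and no difference between the ligand groups was tested.

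**Figure D5:**
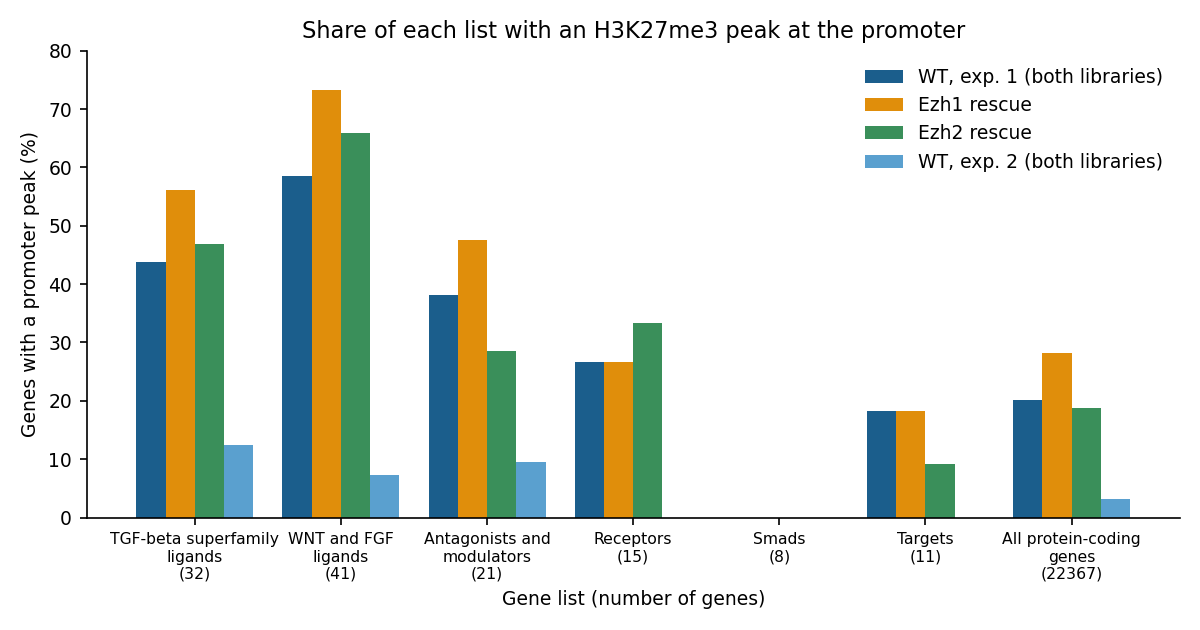
Bars starting at 0 give the percentage of genes in each list (number of genes in brackets) with a promoter peak in both wild-type libraries of experiment 1 (dark blue), the Ezh1 rescue (orange), the Ezh2 rescue (green) and both wild-type libraries of experiment 2 (light blue). The TGF-beta superfamily ligands stand at 43.8%, 56.2%, 46.9% and 12.5%, all protein-coding genes at 20.1%, 28.2%, 18.8% and 3.11%, and the Smad genes at 0 throughout.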

How the data were processed

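H3K27me3 peak lists of 10 libraries were used, and 2 input samples without a list were not analysed here. The authors digested chromatin with micrococcal nuclease, aligned reads to mm9, discarded duplicates, down-sampled, scaled some conditions by a coefficient and called peaks in each sample against input. MACS2 2.0.10, HOMER 3.17, SAMtools, Bowtie2 2.1.0 and Bowtie 0.12.8 are named in the submitters' processing notes. The deposited lists hold peak positions in bp, without scores, so read depth is unknown. Groups and replicate numbers came from the labels.

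Duplicate lines were merged (181 and 328 in the rescue lists, 1 in each wild-type list of experiment 2) and 2 mitochondrial peaks left out. The TSS was the most upstream base of each GENCODE M1 gene, and positions are 1-based. Members, lists and alternatives were chosen with earlier results of these data known. Values in every library are given for members with a peak in both wild-type libraries of an experiment or in a knockout library. Values of experiment 1 are given for up to 3 genes of each other pathway list with the highest wild-type bp. Other genes named were chosen after their values were seen. Shares refer to 22367 protein-coding genes in place of the 37273 annotated genes first planned, over which the marked share was 17.9%. Differences were tested by the exact permutation test (two-sided), at genes named for their peaks in the same libraries. For its H3K27me3 density plots the study names 2 biological replicates. It does not say whether each library listed here came from a separate culture. The p-values therefore measure the spread between libraries, which may be technical. The computation of bp under peaks, tested on simulated data, gave 0 mismatches over 800 windows. Python 3.11.15, NumPy 2.4.6, pandas 2.3.3, SciPy 1.17.1 and matplotlib 3.10.9 were used.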

Additional observations from a re-analysis of the deposited data

How the results depend on the processing

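Of 77 alternative values for 9 counts of ligand genes, 70 stayed within 1.5 times the reported count. The 7 others all concerned wild-type cells of experiment 2. The count with a peak in both wild-type libraries, 4 as reported, was 2 with a window of 1000 bp on either side of the TSS. With peaks of at least 1000 bp only, that count, the count without a knockout peak and the count with wild type above knockout were each 1. Without 1 library in turn, the same counts ranged from 4 to 8, from 3 to 7 and from 3 to 7, and the highest values came without wild-type replicate 2. In experiment 1 the count of marked genes was 14 whichever single library was left out, and the count without a knockout peak ranged from 12 to 13. The marked count in experiment 1 was lowest, 10, with peaks of at least 1000 bp. The count with more bp in the Ezh1 than in the Ezh2 rescue, 18 as reported, was lowest, 13, with the 1000 bp window or with peaks of at least 1000 bp. With the replicate number as a block (replicate block), wild type lay above knockout at 14 ligand genes in experiment 1 and 3 in experiment 2, as without it, and 2 pairs cannot give an exact permutation p below 0.5. The replicate differences of wild-type and knockout cells had correlations of 0.000127 over 7498 promoters in experiment 1 and -0.0117 over 2269 in experiment 2. Of promoters with a peak in both wild-type libraries, 92.4% and 96.4% in turn had no knockout peak. These correlations therefore cannot show whether same-numbered libraries deviate together. The labels give replicate numbers alone, and these were not taken to pair the libraries. Of 161 alternative values for 23 differences at single genes, 146 kept their direction, 14 were 0 and 1 reversed, that at Inhbb in experiment 2, which was 112.5 bp as reported and ranged from -587.5 bp without knockout replicate 1 to 812.5 bp without knockout replicate 2. The cause was not tested. A stricter score threshold was not run, since the lists hold no scores, and the depth behind an absent peak is unknown.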

Other observations

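Peaks were also counted over the whole gene bodies of the ligand genes. The promoter window reaches into the gene, so some bp enter both values. At Gdf10 in knockout replicate 1 of experiment 1, the same 648 bp were counted in both. Peaks lay in 12 and 11 ligand gene bodies in wild-type cells of experiment 1, 17 with Ezh1 and 14 with Ezh2 in the rescues. The shares of all protein-coding genes were 23.9%, 24%, 30% and 23.2% in that order. At least 50% of the gene was covered at 4 ligand genes in each wild-type library of experiment 1, against 6.07% and 7.47% of protein-coding genes, and at 8 in the Ezh1 rescue, against 13.3%. Lefty2 was covered over 100% of its length in the Ezh1 rescue and over 46.6% and 43.8% in wild-type cells, and Gdf6 over 83.4% in the Ezh1 rescue and 52.0% and 56.0% in wild-type cells.

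In knockout cells of experiment 1, peaks lay in the gene bodies of Bmp3, Bmp7 and Gdf10 in replicate 1 and of Bmp2, Bmp7, Gdf2 and Gdf10 in replicate 2. These are 3 and 4 of 32 ligand genes, and 11.9% and 13.2% of all protein-coding genes held such a peak. At Bmp7 they covered 10.1% of the gene in replicate 1 and 52.9% in replicate 2, against 9.76% and 15.4% in wild-type cells, although the promoter had fewer bp in both knockout libraries than in either wild-type library. In knockout replicate 2, 1.19% of protein-coding genes were covered over at least 50% of their length, and Bmp7 was the only ligand gene among them. At the neighbours Gdf2 and Gdf10, peaks covered 40.0% and 25.2% of the gene in knockout replicate 2 and 0% in both wild-type libraries.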
